A study of Mus musculus with 6 samples.

Results

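The MHC class II genes examined here were 7 genes taken by symbol: the chain genes H2-Aa, H2-Ab1 and H2-Eb1, the invariant chain gene Cd74, the exchange factor genes H2-DMa and H2-DMb1, and Ciita, the transactivator of the others. They are 7 of 56941 gene identifiers in the deposited count table, and all 7 were among the 19354 genes with enough counts to be tested. RNA came from the ventral hippocampus of 6 mice. Of these, 3 were labelled with the genotype NEGR1 overexpression and 3 with the genotype NEGR1 control. NEGR1 is an adhesion molecule of the neuronal surface, and the study asked what an excess of it does to memory and to anxiety- and depression-like behaviour. The sources used here do not give the vector or transgene, the cells that carried it, or the strain, sex and age of the mice.

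MHC class II molecules are pairs of an alpha and a beta chain that hold peptides on the cell surface for CD4+ T cells to read. The chains are assembled on the invariant chain, Cd74, which blocks the peptide groove until lysosomal proteases cut it away, and H2-DM then exchanges the remaining fragment for an antigen peptide. In the healthy brain most class II transcripts are found in macrophages of the meninges, vessels and choroid plexus and in a few dendritic cells, while resting microglia carry little. Interferon-gamma raises class II by switching on Ciita.

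Libraries held between 30726110 and 38108394 counts. Values are CPM, counts scaled to a common library size with TMM factors, given by library or as mean ± SD over the 3 mice of a group. A fold above 1 means a higher level in overexpression. Negr1 itself stood at 185, 199 and 195 CPM in the overexpression libraries and at 181, 168 and 180 CPM in the control libraries. Its fold was 1.09 and its edgeR adjusted p was 0.488. Neuronal markers were abundant in all 6 libraries, with the vesicle fusion gene Snap25 at 1846 to 2092 CPM and Prox1, a transcription factor of dentate granule cells, at 68.2 to 137 CPM.

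Class II genes are switched on through a shared promoter module, in which an X box bound by the RFX complex lies upstream of a Y box bound by NF-Y, with CIITA docking on both. The stretches below are shown because they are the feature that several class II genes share outside the counts. They are RefSeq promoter sequence of build GRCm38.p6, 5′ to 3′ on the strand of the gene. Capitals mark GNAAC, a core of the X box, and ATTGG, the Y box core, which reads CCAAT on the other strand.
H2-Aa: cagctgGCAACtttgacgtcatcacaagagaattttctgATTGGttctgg
H2-Eb1: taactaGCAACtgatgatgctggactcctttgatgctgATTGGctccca
H2-DMb1: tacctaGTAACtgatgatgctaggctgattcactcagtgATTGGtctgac
H2-DMb2: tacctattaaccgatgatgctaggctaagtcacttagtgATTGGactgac
H2-Oa: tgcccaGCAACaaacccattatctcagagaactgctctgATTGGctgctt
The stretches lie at chr17:34287861-34287910 (minus strand) for H2-Aa, and on the plus strand at chr17:34305770-34305818 for H2-Eb1, chr17:34153091-34153140 for H2-DMb1, chr17:34145120-34145169 for H2-DMb2 and chr17:34092297-34092346 for H2-Oa.

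Promoter windows of 250 bases before to 50 bases after the start were read for H2-Aa, H2-Eb1, H2-DMa and H2-DMb1, and for the relatives H2-DMb2, H2-Oa and H2-Ob; H2-Ab1, Cd74 and Ciita are named only. GNAAC followed by ATTGG, with 25 to 30 bases between them, was present in H2-Aa, H2-Eb1, H2-DMb1, H2-Oa and H2-Ob. The spacing was 28 bases in H2-Aa, H2-DMb1 and H2-Oa, 27 in H2-Eb1 and 25 in H2-Ob. On either strand that pair was found in 343 of 32851 promoter windows of the same length, or 1.04%, while ATTGG alone was in 37.4% and GNAAC alone in 84.8%. In H2-DMb2, the near copy of H2-DMb1, the letters at the place of the X core did not match GNAAC. Neither of the 2 windows of H2-DMa held the pair. A match describes letters in these windows and shows neither binding nor a cause.

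The chain genes were uneven within the overexpression group. H2-Aa, the alpha chain of the I-A molecule, was at 2.27, 1.64 and 6.55 CPM in overexpression replicates 1, 2 and 3 and at 2.21, 1.49 and 1.57 CPM in control replicates 1, 2 and 3. H2-Ab1, the beta chain that pairs with it, was at 2.62, 1.46 and 5.69 CPM against 1.59, 1.17 and 0.918 CPM. H2-Eb1, the beta chain of I-E, was at 2.15, 1.55 and 5.46 CPM against 1.68, 1.41 and 0.721 CPM. In each of these genes overexpression replicate 3 stood alone at the top, and overexpression replicate 2 lay within the range of the controls. In counts, H2-Aa rested on 236 in overexpression replicate 3 and on 48 to 76 in each of the other 5 libraries.

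Cd74, the invariant chain and chaperone of class II, followed the chains. It stood at 6.56, 3.80 and 19.5 CPM in overexpression replicates 1, 2 and 3 and at 4.64, 3.48 and 3.38 CPM in control replicates 1, 2 and 3. The exact Poisson 95% interval, which covers counting error only, was 18.1 to 21.0 CPM in overexpression replicate 3 and 5.72 to 7.49 CPM in overexpression replicate 1, the next highest library. The groups overlapped, since control replicate 1 lay above overexpression replicate 2. Overexpression replicate 3 was 2.98 times the next library for Cd74, 2.89 times for H2-Aa, 2.54 times for H2-Eb1 and 2.17 times for H2-Ab1.

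**Figure D1:**
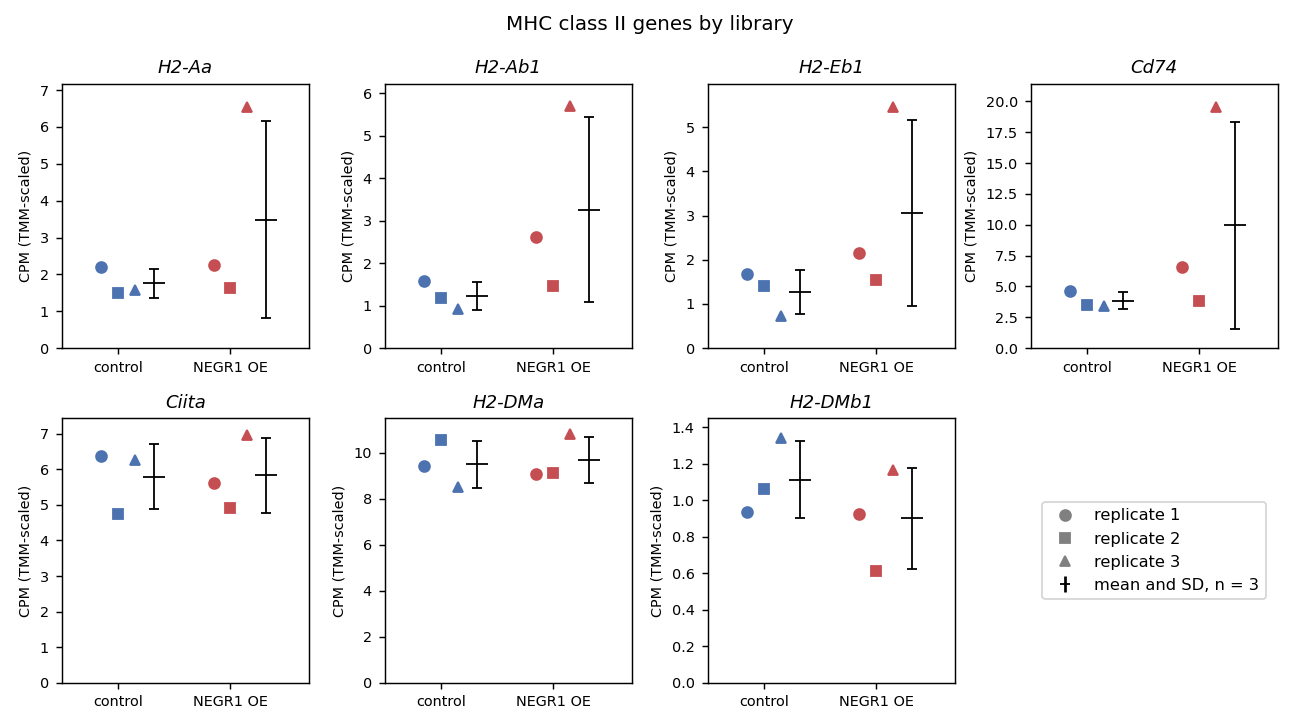
TMM-scaled CPM of the 7 MHC class II genes in each library (y axis, from 0), control in blue and NEGR1 overexpression (OE) in red, with marker shape giving the replicate number and the black bar the mean and SD of 3 mice. The triangle of overexpression replicate 3 lies at 6.55, 5.69, 5.46 and 19.5 CPM for H2-Aa, H2-Ab1, H2-Eb1 and Cd74, apart from all other libraries, and among them for Ciita, H2-DMa and H2-DMb1.

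The other members had no such library. H2-DMa, the alpha chain of the exchange factor, was at 9.07, 9.12 and 10.8 CPM in overexpression libraries, while the controls had 9.41, 10.6 and 8.49 CPM. H2-DMb1, a beta chain of the exchange factor, was at 0.925, 0.614 and 1.17 CPM against 0.934, 1.06 and 1.34 CPM. Ciita was at 5.61, 4.91 and 6.96 CPM against 6.38, 4.73 and 6.26 CPM. The groups overlapped for these 3 genes, and over most of their range for H2-DMa and Ciita. For H2-DMb1 only overexpression replicate 3, at 1.17 CPM, lay within the control range, and the other overexpression libraries lay below every control. Of these, overexpression replicate 1, at 0.925 CPM (31 counts), was level with control replicate 1, at 0.934 CPM (30 counts), within counting error. Overexpression replicate 3 was the highest library for H2-DMa and Ciita by 1.02 and 1.09 times.

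Counts of these 3 genes carry a limit of their own. H2-DMb1 and H2-DMb2 share 94.6% of 1219 aligned transcript bases, so their reads may have been split or left out, and both values are uncertain. In the GENCODE vM21 annotation an exon of H2-DMa overlaps one of Brd2, and an exon of Ciita overlaps one of Dexi, each on the opposite strand. Brd2 had 6133 to 7912 counts in a library and Dexi 709 to 847, against 259 to 397 for H2-DMa and 168 to 251 for Ciita. The sources used here do not give the strand setting of the counting, and without strand the reads of such partners cannot be told apart.

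None of the 7 members passed edgeR's quasi-likelihood test at an adjusted p of 0.05, where 0.0465% of all tested genes did (9 of 19354) and 0.0258% did with a higher level in overexpression. An unadjusted p under 0.05 was reached by 1 member, H2-Ab1, and by 9.24% of all genes. Groups without overlap were found for 0 members and for 15.1% of all genes, 7.07% with overexpression higher. A fitted fold of at least 2 was found for 3 members, H2-Ab1, H2-Eb1 and Cd74, and for 0.687% of all genes. The fitted fold change was above 1 for 6 of 7 members and for 50.4% of genes tested, and the median log2 fold change was 0.99 for the members against 0.0015 for all genes tested. The 6 members include Ciita and H2-DMa, whose folds were only 1.01 and 1.02.

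H2-Ab1 had a mean of 3.26 ± 2.18 CPM with overexpression, against 1.23 ± 0.339 CPM in the controls. Its log2 fold change was 1.41 ± 0.52 (SE), a fold of 2.66 with a 95% interval of 1.11 to 6.35, and its edgeR p was 0.0328 before and 0.489 after adjustment. For Cd74 the means were 9.96 ± 8.40 and 3.83 ± 0.701 CPM, a fold of 2.61 with an interval of 0.654 to 10.4 and an edgeR adjusted p of 0.658. The folds of H2-Eb1 and H2-Aa were 2.39 and 1.99, with intervals of 0.926 to 6.19 and 0.722 to 5.50. None of these differences passed after adjustment, and only the interval of H2-Ab1 left out a fold of 1. The SD of the overexpression group was 67.0 to 84.3% of its mean for the chains and Cd74, against 18.3 to 39.0% in controls.

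The intervals of Ciita and H2-DMa were narrow. They hold for the reads counted to these genes, which may include reads of Dexi and Brd2. They therefore do not bound a change in either gene itself. The means of Ciita were 5.83 ± 1.04 and 5.79 ± 0.920 CPM, a fold of 1.01 with a 95% interval of 0.794 to 1.28. H2-DMa was at 9.67 ± 0.996 against 9.49 ± 1.04 CPM, a fold of 1.02 with an interval of 0.855 to 1.21. H2-DMb1 was at 0.901 ± 0.276 against 1.11 ± 0.210 CPM, a fold of 0.813 with an interval of 0.522 to 1.27. The edgeR adjusted p was 0.798 for H2-DMb1 and higher for the other two.

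The size of the chain differences rested on overexpression replicate 3. Without that library the log2 fold change was 0.15 for H2-Aa, 0.73 for H2-Ab1, 0.53 for H2-Eb1 and 0.44 for Cd74, and the members' median was 0.15 in place of 0.99. Ciita and H2-DMa then had log2 fold changes of -0.13 and -0.06. H2-Ab1 passed under DESeq2's Wald test (adjusted p = 0.0386) and under edgeR with no filter on low counts (adjusted p = 0.00229), and in none of the edgeR fits that left out 1 library, where its adjusted p ran from 0.207 to 0.817.

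**Figure D2:**
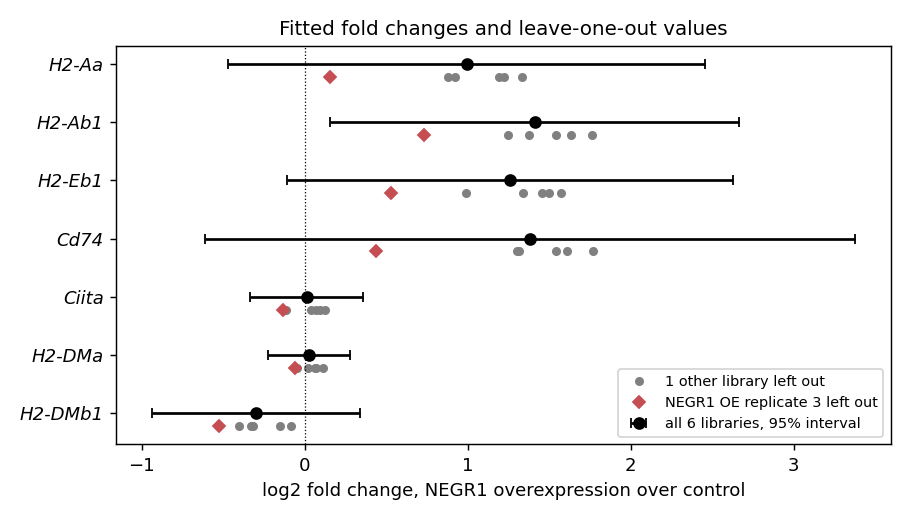
Log2 fold change of each MHC class II gene, NEGR1 overexpression over control (x axis), from edgeR: black points and bars give all 6 libraries with the 95% interval, grey points the fits without 1 other library and red diamonds the fit without overexpression replicate 3. The red diamonds of H2-Aa, H2-Ab1, H2-Eb1 and Cd74 fall to 0.15, 0.73, 0.53 and 0.44, to the left of every grey point of the same gene.

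Overexpression replicate 3 was at least 2 times every other library for 4 of the 7 members and for 20 of 19354 tested genes, or 0.103%; the factor of 2 was chosen after the values were seen. The same count was 48 genes (0.248%) in overexpression replicate 1 and 15 (0.0775%) in overexpression replicate 2. It was 10 (0.0517%), 4 (0.0207%) and 2 (0.0103%) in control replicates 1, 2 and 3, and none of these lists held a member. Of the 20 genes, the chains and Cd74 were 4. The rest included Cxcl9, a chemokine induced by interferon-gamma, and also Zfp131, Gm18194, Gm41077 and Nutf2-ps1. Zfp131 was at 86.7 CPM in overexpression replicate 3 against 39.8 to 41.6 CPM elsewhere, and Gm18194 at 9.57 against 2.33 to 3.77 CPM. Whether the 20 genes share an inducer was not tested. Cxcl9 was at 1.22, 1.32 and 3.02 CPM in overexpression and at 0.187, 0.0798 and 0.197 CPM in control libraries, groups that did not overlap (edgeR adjusted p = 0.0189).

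The ratios of the chains to Cd74 varied less over the 6 libraries than those of Ciita and H2-DMa to Cd74. Cd74 ranged 5.78-fold over the 6 libraries, from control replicate 3 to overexpression replicate 3. H2-Aa counts were 0.335 to 0.477 times the Cd74 counts of the same library, H2-Ab1 counts 0.272 to 0.400 times and H2-Eb1 counts 0.214 to 0.408 times, ranges of 1.42-fold, 1.47-fold and 1.91-fold. The ratio of H2-Aa to H2-Ab1 counts ranged 1.98-fold. Without overexpression replicate 3 Cd74 itself ranged only 1.94-fold, about as much as these ratios. The exact Clopper-Pearson 95% intervals of the H2-Aa ratio, from counting error only, were 0.288 to 0.389 in overexpression replicate 3 and 0.324 to 0.663 in control replicate 3, and they overlapped. Ciita counts were 0.357 times the Cd74 counts in overexpression replicate 3 (0.307 to 0.412) and 1.85 times in control replicate 3 (1.45 to 2.38), intervals that did not overlap, and H2-DMa counts ranged from 0.554 to 3.03 times the Cd74 counts.

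**Figure D3:**
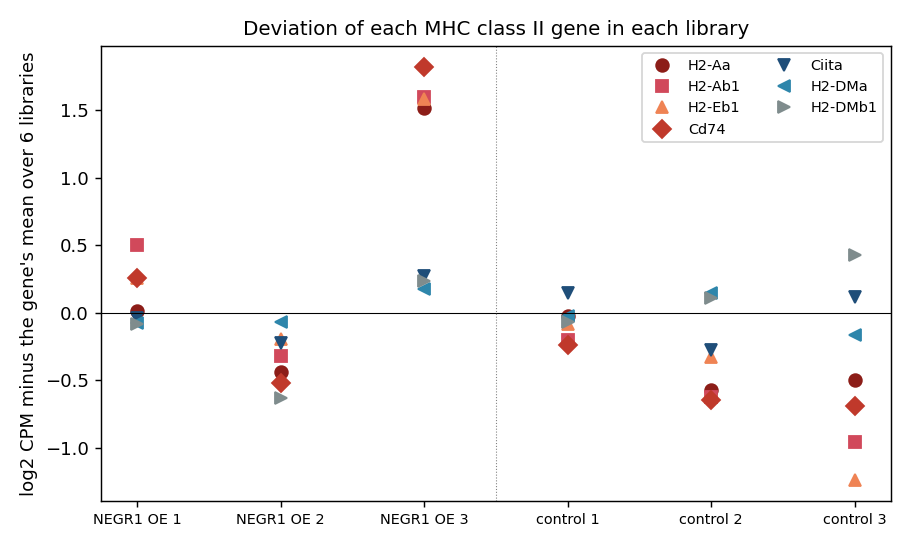
Deviation of each MHC class II gene in each library (y axis, log2 CPM minus the gene's own mean over the 6 libraries; x axis, library). The chains and Cd74, in red and orange, lie together at 1.52 to 1.82 in overexpression replicate 3, while Ciita, H2-DMa and H2-DMb1, in blue and grey, lie at 0.18 to 0.27 there.

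Per transcript length, the order of the members was led by H2-DMa and Cd74. In control libraries H2-DMa was at 4.73 ± 0.516 RPKM (CPM per kilobase of the longest protein-coding transcript), Cd74 at 2.72 ± 0.497, H2-Aa at 1.56 ± 0.350, H2-Ab1 at 1.01 ± 0.279, Ciita at 0.964 ± 0.153, H2-DMb1 at 0.794 ± 0.149 and H2-Eb1 at 0.761 ± 0.297 RPKM. With these lengths H2-DMa lay above Cd74, and Cd74 above H2-Aa, in all 3 control libraries. The 4 lowest genes overlapped with each other, and their order there is within the spread. In overexpression replicate 3 the order changed: Cd74 led at 13.9 RPKM, followed by H2-Aa at 5.80 and H2-DMa at 5.40 RPKM. The values depend on the length taken. With the union of all annotated exons, which is 3798 bases for H2-Aa in place of 1128, H2-Aa was at 0.463 RPKM in controls, next to H2-Ab1 at 0.477 RPKM, a gap within the spread. H2-DMa was then at a control mean of 2.75 RPKM and Cd74 at 2.28 RPKM, so the lead of H2-DMa was smaller and depends on the length taken. Reads of Brd2, which overlaps H2-DMa on the opposite strand, may also be part of the H2-DMa value.

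Genes with a profile like that of a member were ranked by the root mean square difference of centred log2 CPM over the 6 libraries, among 15751 other genes with a mean of at least 1 CPM. With Cd74 as the reference, a choice made after the values were seen, the nearest genes were H2-Ab1 at 0.19, H2-Aa at 0.20 and H2-Eb1 at 0.31. Outside the class II genes the nearest 8 were Gm18194, Nlrc5, Jchain, Nutf2-ps1, Tgtp2, Igtp, Crybb3 and Gm17200, with differences of 0.35 to 0.50. Ciita came at rank 787 and H2-DMa at rank 2103. Nlrc5, the transactivator of MHC class I and a relative of Ciita, was at 4.06, 3.19 and 6.85 CPM in overexpression and at 2.65, 1.97 and 2.56 CPM in control libraries (edgeR adjusted p = 0.34). Igtp, an interferon-inducible GTPase, was at 5.13, 6.52 and 12.6 against 4.02, 3.54 and 4.89 CPM.

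With H2-DMa, the member with the highest mean CPM, as the reference, the nearest 8 were Dach1, Gm37499, Diaph2, Xrn1, Ostm1, Dtx2, Tmem138 and Lsp1, with differences of 0.014 to 0.043. H2-DMa itself varied only 1.27-fold over the libraries. No other member was among them, and Ciita was the nearest of the class II genes at rank 12308.

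The rest of the class II pathway was read from lists of 35 genes, of which 32 were tested and 0 passed edgeR's test. Among the class II relatives H2-Ob, a chain of the H2-O inhibitor of H2-DM, was at 0.672 ± 0.207 against 0.481 ± 0.0250 CPM and H2-DMb2 at 0.377 ± 0.155 against 0.387 ± 0.148 CPM. H2-Oa, at 3 to 22 counts a library, and H2-Eb2, at 0 to 2, were too low to be tested. H2-Ea, the alpha chain gene that pairs with H2-Eb1 and is annotated as a polymorphic pseudogene in the reference, had 0 counts in each of the 6 libraries, which allows up to 3 counts a library. No transcript of this alpha chain partner was therefore counted, while H2-Eb1 itself had 22 to 197 counts a library.

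Of 7 genes of class II transcription, the RFX and NF-Y subunits and Creb1 that bind the X and Y boxes, 0 passed. Of these 6 were above a fold of 1, the median log2 fold change being 0.08, and 1, Creb1, had an unadjusted p under 0.05. Rfx5, a DNA-binding subunit of the RFX complex, was at 14.3 to 16.7 CPM over all 6 libraries. Creb1, which binds the X2 site of the module, was at 74.8 ± 8.03 against 65.9 ± 2.93 CPM, a fold of 1.14 with a 95% interval of 1.02 to 1.27 and an edgeR adjusted p of 0.48. Nfyb, an NF-Y subunit, was at 45.7 ± 2.68 against 42.8 ± 1.48 CPM.

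On the interferon-gamma route to Ciita 0 of 7 genes passed, with a median log2 fold change of 0.08. Jak2, the kinase below the receptor, was at 49.7 ± 3.64 against 46.2 ± 1.21 CPM. Irf1, an interferon-induced transcription factor, was highest in overexpression replicate 3, at 9.63 CPM against 5.91 to 8.67 CPM elsewhere.

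Of 9 genes of class II antigen processing and turnover 0 passed the threshold and 3 had a fold above 1; their median log2 fold change was -0.07. Lgmn, the lysosomal protease legumain, was at 72.9 ± 5.33 against 88.7 ± 3.24 CPM (edgeR adjusted p = 0.189) and Ctsd, cathepsin D, at 146 ± 13.3 against 170 ± 3.60 CPM (edgeR adjusted p = 0.34). Groups did not overlap for 4 of the 9, 3 lower and 1 higher, against 15.1% of all genes in either direction. Lgmn passed under DESeq2 (adjusted p = 0.025). Ctss, cathepsin S, which cuts the invariant chain, was at 65.7, 51.2 and 90.5 CPM in overexpression and between 63.3 and 73.1 CPM in control libraries, again highest in overexpression replicate 3.

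Costimulatory and T cell partner genes had 0 of 7 past the threshold and a median log2 fold change of 0.12. Cd274, the ligand PD-L1, was at 2.80, 4.59 and 4.97 against 2.80, 2.37 and 2.52 CPM (edgeR adjusted p = 0.369), and passed when overexpression replicate 1 was left out (adjusted p = 0.0492). Lag3, a class II receptor, was at 6.61 ± 1.88 against 9.02 ± 0.774 CPM (edgeR adjusted p = 0.466).

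MHC class I genes, chosen for mention after their values were seen, were also highest in overexpression replicate 3. H2-K1 was at 38.7, 29.7 and 50.02 CPM in overexpression, against a control mean of 31.3 ± 1.44 CPM, and H2-D1 at 52.7, 34.8 and 75.9 against 44.0 to 44.3 CPM, with edgeR adjusted p-values of 0.654 and 0.825. H2-Q4 was at 6.44, 6.08 and 9.29 against 4.81 to 5.61 CPM (edgeR adjusted p = 0.401). Tap1, of the class I pathway, was at 5.52, 5.15 and 8.04 against 3.80 to 4.73 CPM (edgeR adjusted p = 0.423). Groups did not overlap for H2-Q4 and Tap1, and overlapped for H2-K1, H2-D1, B2m and Psmb8. Over all genes tested 15.1% did not overlap. The difference between class I and class II genes was not tested.

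Markers of cells that can carry class II are given beside these values. In bulk tissue, more cells of a type and more RNA per cell cannot be told apart. The summed level of the 7 members was 29.2, 23.1 and 56.2 CPM in overexpression and 26.8, 23.9 and 22.7 CPM in control libraries. The summed level of 8 microglia markers was 305 to 357 CPM in overexpression libraries against 314 to 342 CPM in the controls, highest in overexpression replicate 3. Border macrophage markers (8 genes) summed to 17.4, 13.2 and 15.3 CPM against 11.4 to 12.4 CPM. Of the 8 genes 5 had a fold above 1. The macrophage receptor genes Mrc1 and Cd163 were above the controls in all 3 overexpression libraries, at 5.03 to 6.47 against 4.02 to 4.56 CPM and at 2.92 to 3.995 against 2.09 to 2.66 CPM, with edgeR adjusted p-values of 0.412 and 0.419. Ms4a7 was below the controls in all 3, at 0.405 ± 0.0212 against 0.689 ± 0.148 CPM (edgeR adjusted p = 0.514), and Pf4 and Cd209f had folds of 0.818 and 0.796 with overlapping groups. The border macrophage sum was not highest in overexpression replicate 3.

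Dendritic cell markers summed to 25.1 to 27.3 CPM in overexpression libraries and to 29.7 to 33.0 CPM in the controls, and the groups did not overlap. Flt3 and Zbtb46 made the larger part of this sum. Flt3 was at 13.5 ± 0.776 against 12.9 ± 0.834 CPM, and Zbtb46 at 10.2 ± 0.365 against 12.8 ± 1.96 CPM (edgeR adjusted p = 0.418). Whether these reads came from dendritic cells was not tested. Clec9a had 12 to 25 counts a library. Xcr1, which defines cross-presenting dendritic cells, had 0 counts in all 6 libraries, and Itgax, the integrin CD11c, was at 1.20 ± 0.488 against 4.07 ± 0.994 CPM (edgeR adjusted p = 0.0862). B cell markers summed to 19.6, 7.37 and 10.1 CPM against 6.26 to 6.91 CPM, of which Ighm and Igkc made the larger part. Igkc, the antibody kappa constant gene, was at 4.92, 0.468 and 2.97 against 0.0934 to 0.328 CPM (edgeR adjusted p = 0.444), while Ms4a1, which defines B cells as CD20, had 1, 7 and 1 counts against 0 in each control library. Other B cell genes did not share this order: Cd79b had 1, 1 and 2 counts against 7, 2 and 8, Cd79a had 7, 13 and 12 counts against 14, 4 and 8, and Pax5 had a fold of 0.758. T cell markers summed to 3.30 to 4.52 CPM against 3.11 to 3.74 CPM, highest in overexpression replicate 3. There Cd3g had 16 counts against 0 to 6 elsewhere, Cd3d 8 against 0 to 2 and Cd8a 27 against 7 to 18. Cd3e had 6 counts there and up to 13 elsewhere, Trbc2 8 and up to 17, and Cd247 had 1 against 3 to 6. Monocyte and neutrophil markers summed to at most 2.13 CPM in overexpression libraries and at most 1.62 CPM in the controls, with Ly6g at 0 counts in all 6 libraries.

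Tissues that border the hippocampus hold class II macrophages too. Choroid plexus markers (7 genes) summed to 730, 47.1 and 68.3 CPM in overexpression and to 23.9, 48.1 and 26.5 CPM in control libraries. Overexpression replicate 1, which stood apart in these genes, was the second highest library for each chain and Cd74. For H2-Aa it lay next to control replicate 1, at 2.27 against 2.21 CPM. Meningeal fibroblast markers (7 genes) summed to 132, 131 and 102 CPM against 117, 73.0 and 87.9 CPM, and overexpression replicate 3 was the lowest of its group. Tested markers were 8 of 8 for microglia and for border macrophages, 5 of 8 for dendritic cells, 4 of 7 for B cells, 2 of 8 for T cells and for monocytes and neutrophils, and 7 of 7 for choroid plexus and for meningeal fibroblasts. In each of these lists 0 genes passed edgeR's test; an unadjusted p under 0.05 was reached by 0 microglia, 3 border macrophage, 2 dendritic cell, 1 B cell, 0 T cell, 0 monocyte and neutrophil, 2 choroid plexus and 5 meningeal fibroblast markers. The part of any of these cell types in the class II values was not tested. Without overexpression replicate 1 the log2 fold change of Cd74 was 1.61 and that of H2-Ab1 was 1.54.

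**Figure D4:**
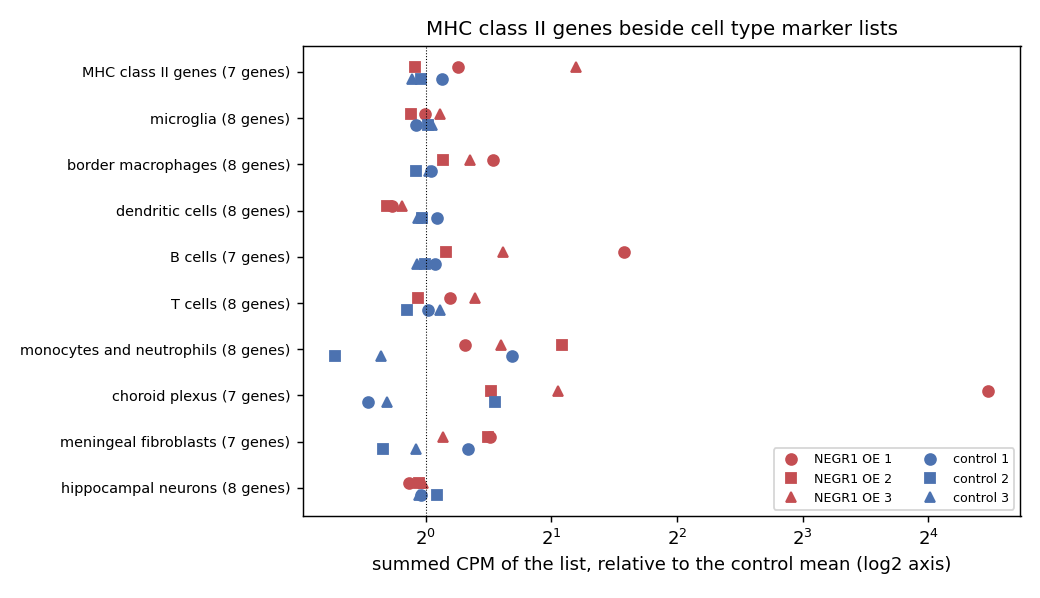
Summed CPM of the 7 MHC class II genes and of each cell type marker list in each library, divided by the mean of the control libraries (x axis, log2 scale), with NEGR1 overexpression in red, control in blue and marker shape giving the replicate number. Overexpression replicate 3 is farthest to the right for the class II genes (56.2 CPM), and overexpression replicate 1 for choroid plexus markers (730 CPM) and B cell markers (19.6 CPM).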

How the data were processed

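Poly(A) RNA libraries that keep strand were made from ventral hippocampus, per the labels' protocols. The authors deposited raw counts for each Ensembl gene in whole numbers. The submitters' processing notes list Trimmomatic 0.36, STAR 2.7.10, featureCounts 2.0.3 and the builds mm10 and GRCm39; which of these the counting used is not known here. Symbols were found for 51948 of 56941 identifiers and for all 111 listed genes, 3 of them by synonym.

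All genes were fitted with edgeR 4.0.16 (R 4.3.3; TMM factors, default filter on low counts, robust quasi-likelihood test, group as the only term) and adjusted by Benjamini-Hochberg over 19354 genes. Tested on simulated counts of the same comparison (19067 genes), the fit called 14% of 50 genes at the smallest fold simulated, 54% of those changed 1.5-fold, 74% of those changed 2-fold and 92% of those changed 4-fold. It made 18 false calls. The changed genes were drawn at random from all tested genes, and no library was made to stand apart. These rates therefore do not give the chance of a call for the chains and Cd74. Each pair of libraries differed beyond sampling noise, with a chi-square per degree of freedom of 4.28 to 12.9. Likeness used log2 CPM with a prior count of 2. Named genes were the members, the 2 pathway genes of smallest p per list, and the 8 nearest profiles; Rfx5, Irf1, Ctss and Cxcl9 were added after their values were seen, and 1 gene that the rule names is not reported here. Members and lists were chosen with earlier results of these data known. The alternatives tried were RLE and upper quartile factors, limma 3.58.1 with voom weights, DESeq2 1.42.0, 2 other filters, a looser threshold, a replicate block and leaving out each library.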

Additional observations from a re-analysis of the deposited data

How the results depend on the processing

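The number of class II members called, 0 of 7, was also 0 under RLE and upper quartile factors, limma-voom, a stricter filter, the looser threshold, the replicate block and each fit without 1 library (0 to 0). It was 1 with no filter and 1 under DESeq2, H2-Ab1 in both. The number of all genes called, 9, was 304 with no filter, 5 with the stricter filter, 107 under DESeq2 and 19 at an adjusted p of 0.1. Leaving out 1 library gave 2 to 63: 63, 5 and 7 without overexpression replicates 1, 2 and 3, and 39, 2 and 3 without control replicates 1, 2 and 3. The pathway lists, at 0, gave 4 with no filter (Ctsd, Lgmn and Cd274 among them), 1 under DESeq2 (Lgmn) and 0 to 2 without 1 library. The members' median log2 fold change, 0.99, ran from 0.15 to 1.33 when 1 library was left out. Ciita, at 0.014, was -0.036 under limma-voom and -0.13 to 0.12 without 1 library, and H2-DMa, at 0.026, was -0.061 to 0.11; the cause was not tested. The directions of H2-Aa, H2-Ab1, H2-Eb1, Cd74 and H2-DMb1 held under all 13 alternatives of their fold changes.

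Same-numbered libraries deviated together only weakly: their correlations were 0.061, 0.029 and 0.063, against -0.099 to 0.039 for libraries of different number. Replicates 1 and 3 of both groups correlated best with their own number, and replicate 2 of both groups did not. With the replicate block 26 genes were called, 0 of them members, and the members' median was 0.79. Members had as few as 21 counts in a library (H2-DMb1), which limits what small differences can show.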
